A study of Homo sapiens with 8 samples.

Results

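The epidermal differentiation complex is a gene cluster on the long arm of chromosome 1 that carries most of the structural genes of the outer skin layers. It was taken here as chromosome 1, 151950000 to 153650000 (build hg19), and its members are all accessible regions that overlap this interval. Of 80588 regions merged from 8 ATAC-seq peak lists on chromosomes 1 to 22 and X, 89 fell in the complex. ATAC-seq marks open chromatin, since the Tn5 transposase inserts sequencing adapters where DNA is accessible. The libraries came from KOSC-2 and HSC-3, established lines of oral squamous cell carcinoma (OSCC), which the labels call radiosensitive and radioresistant. The 4 groups were KOSC-2 at 0 Gy, KOSC-2 at 8 Gy, HSC-3 at 0 Gy and HSC-3 at 8 Gy, with 2 libraries each. All cells were grown in DMEM with serum and frozen 24 hours after irradiation or its omission. The series was made to compare lines of different radiosensitivity with and without irradiation, and 1 line stands for each class. Nothing in the labels tells separate cultures from repeat preparations within a group, so every p-value measures only the spread between these libraries.

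The complex holds gene families that act late in the life of a keratinocyte. Involucrin (IVL), loricrin (LORICRIN), the small proline-rich proteins (SPRR) and the late cornified envelope proteins (LCE) are building blocks of the cornified envelope, the cross-linked protein shell of dead surface cells. Filaggrin (FLG) and its relatives of the S100 fused type bundle keratin filaments or join that shell, and the S100 genes encode small calcium-binding proteins, some of which are made by many cell types. AP-1 is a transcription factor long known to act on the involucrin promoter.

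Peaks were compared over 7 segments of the complex, each a run of whole 50 kb windows. From the lower to the higher coordinate these are an S100A10 and S100A11 segment (151950000 to 152050000), a trichohyalin-to-cornulin segment with TCHH, RPTN, HRNR, FLG, FLG2 and CRNN (to 152450000), an LCE segment (to 152850000), an involucrin and SPRR segment (to 153150000), a loricrin segment (to 153300000), an S100A9-to-S100A7 segment that also holds S100A12 and S100A8 (to 153500000), and an S100A6-to-S100A1 segment (to 153650000). The last also holds S100A2, S100A4, S100A13, S100A14, S100A16 and the general cell genes CHTOP, SNAPIN and ILF2. The placing of genes on windows rests on general knowledge of hg19, because no annotation of that build was used here. The order of the 63 listed genes matched the RefSeq table of assembly GRCh38.p14, which has 3 further protein-coding genes between the first and the last. No region was assigned to a single gene.

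The sequences just before the gene starts differ between the gene families of the complex, and a few are shown so that the segments compared next can be told apart by their letters. Each line gives the 250 bases upstream of the start of transcription, 5′ to 3′ on the gene's strand, from the RefSeq promoter table (GRCh38.p14). S100A10, FLG, LORICRIN and S100A6 stand in for 4 segments, IVL and SPRR1A for the involucrin and SPRR segment, and LCE2A for the LCE segment. Capitals mark TATAAA, the core of a TATA box, on either strand. They also mark TGANTCA, which reads the same on both strands and includes the AP-1 sites TGAGTCA and TGACTCA.
S100A10: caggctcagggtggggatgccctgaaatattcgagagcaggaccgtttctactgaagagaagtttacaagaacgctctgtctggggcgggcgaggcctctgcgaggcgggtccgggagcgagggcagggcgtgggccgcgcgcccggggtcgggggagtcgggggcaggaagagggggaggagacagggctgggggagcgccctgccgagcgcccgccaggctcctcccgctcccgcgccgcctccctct
FLG: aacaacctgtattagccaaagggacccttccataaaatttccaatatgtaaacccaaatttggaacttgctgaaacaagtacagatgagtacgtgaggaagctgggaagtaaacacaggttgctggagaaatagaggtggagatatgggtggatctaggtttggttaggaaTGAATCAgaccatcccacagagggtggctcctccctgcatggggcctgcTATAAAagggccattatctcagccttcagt
LCE2A: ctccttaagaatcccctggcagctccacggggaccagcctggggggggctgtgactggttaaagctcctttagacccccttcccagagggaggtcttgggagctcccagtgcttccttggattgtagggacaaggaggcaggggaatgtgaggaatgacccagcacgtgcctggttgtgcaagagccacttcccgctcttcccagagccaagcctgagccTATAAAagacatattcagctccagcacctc
IVL: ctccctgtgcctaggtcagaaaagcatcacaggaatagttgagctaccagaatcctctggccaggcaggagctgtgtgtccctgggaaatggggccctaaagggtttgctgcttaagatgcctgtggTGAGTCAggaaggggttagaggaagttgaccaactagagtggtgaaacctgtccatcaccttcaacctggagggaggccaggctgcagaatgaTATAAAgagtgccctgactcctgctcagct
SPRR1A: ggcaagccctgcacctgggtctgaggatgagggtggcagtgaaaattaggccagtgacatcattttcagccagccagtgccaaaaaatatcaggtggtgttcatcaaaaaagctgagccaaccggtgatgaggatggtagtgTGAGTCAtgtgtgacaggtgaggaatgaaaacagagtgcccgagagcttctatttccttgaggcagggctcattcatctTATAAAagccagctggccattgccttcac
LORICRIN: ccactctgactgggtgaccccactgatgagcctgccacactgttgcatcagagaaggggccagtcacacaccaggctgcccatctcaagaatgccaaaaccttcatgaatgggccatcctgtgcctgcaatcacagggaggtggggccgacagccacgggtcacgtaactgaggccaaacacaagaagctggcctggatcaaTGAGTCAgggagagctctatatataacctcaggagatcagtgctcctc
S100A6: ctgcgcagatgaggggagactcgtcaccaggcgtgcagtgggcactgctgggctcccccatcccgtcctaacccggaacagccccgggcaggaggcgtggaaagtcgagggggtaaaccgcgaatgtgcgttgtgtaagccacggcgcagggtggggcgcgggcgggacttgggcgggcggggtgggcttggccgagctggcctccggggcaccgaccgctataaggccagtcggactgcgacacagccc

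The S100A10 and S100A6 stretches carry neither motif and hold 24 CpG dinucleotides each. The FLG, IVL and SPRR1A stretches carry both motifs, and hold 1, 0 and 2 CpG. LORICRIN has TGANTCA without TATAAA, and LCE2A has TATAAA without TGANTCA. Only the exact letters were searched, so near variants such as tatatataa in the LORICRIN stretch were not counted. Over all segments, 59 of the 63 listed genes were found in the table, with 68 starts. TGANTCA, read on either strand, was in 6 of 7 promoters of the trichohyalin-to-cornulin segment, in 7 of 10 of the involucrin and SPRR segment and in 3 of 4 of the loricrin segment. It was in 0 of 19 LCE promoters, in 1 of 8 of the S100A9-to-S100A7 segment, in 0 of 2 of the S100A10 and S100A11 segment and in 3 of 18 of the S100A6-to-S100A1 segment. Among all 35116 promoters of the table, 6.57% held it. These counts pool the AP-1 sites named above with other variants of the motif. In the trichohyalin-to-cornulin segment no match was a named AP-1 site, FLG included. In the involucrin and SPRR segment IVL, SPRR1A, SPRR1B, SPRR2A, SPRR2F and SPRR3 held a named site, and SPRR2G held another variant. LORICRIN, PRR9, S100A2, S100A3 and S100A5 also held a named site, and LELP1 and S100A12 another variant. TATAAA on the gene's strand within the last 50 bases was in 8 of 10 involucrin and SPRR promoters, in 5 of 7 of the trichohyalin-to-cornulin segment, in 5 of 8 of the S100A9-to-S100A7 segment and in 7 of 19 LCE promoters. It was in 1 of 4 of the loricrin segment, in 0 of 2 of the S100A10 and S100A11 segment and in 2 of 18 of the S100A6-to-S100A1 segment, against 2.63% of all promoters. The median number of CpG was 19.5 in the S100A10 and S100A11 segment and 6.5 in the S100A6-to-S100A1 segment, where values ran from 1 to 24 and S100A6 is at the upper end. It was 0.5 to 2.5 in the other 5 segments, beside 11 over all promoters. A motif match is a description of letters, and binding was not measured.

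**Figure D1:**
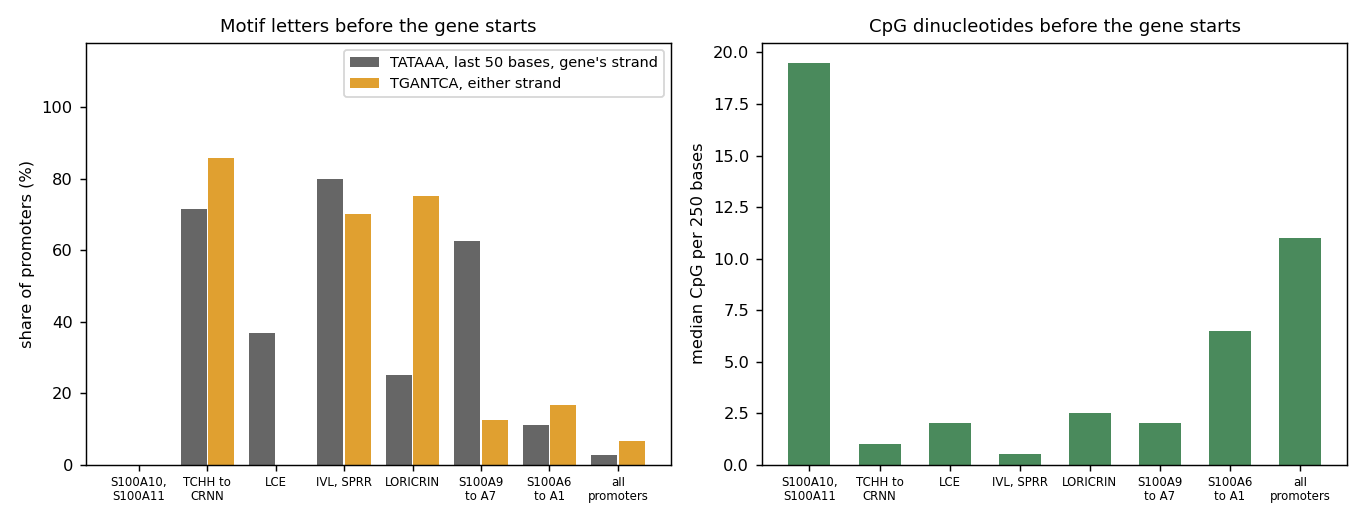
Left, the share of promoters (percent, 250 bases before each start) with TATAAA in the last 50 bases on the gene's strand (grey bars) or TGANTCA on either strand (yellow bars), for the 7 segments and for all promoters of the table. Right, the median number of CpG dinucleotides in the same bases. In the LCE segment TATAAA is in 7 of 19 promoters and TGANTCA in 0 of 19, and CpG is highest in the S100A10 and S100A11 segment (19.5).

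The 8 lists held 22504 to 51693 peaks on chromosomes 1 to 22 and X. Background under the peaks, used as a measure of depth because read totals are not used here, ranged from 20.2 to 64.8 reads per 10 kb. In HSC-3, replicate 2 at 0 Gy (23490 peaks) and replicate 1 at 8 Gy (22504 peaks) gave short lists, and the other 6 lists held at least 38234 peaks. The 3 libraries of lowest enrichment (summit pileup over background, median over regions called in all 8 libraries) were HSC-3 replicate 1 at 8 Gy (21.9), KOSC-2 replicate 1 at 0 Gy (25.7) and HSC-3 replicate 2 at 0 Gy (34.7), against at least 49.6 in the others. No list has a peak under 5 to 9 reads at its summit, so weaker open regions were not detectable at this depth. Marker genes of the labelled cell type were not analysed here, since that needs gene positions of hg19.

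Accessible regions were packed more densely at the S100 ends of the complex than in its middle, although most regions lay in the middle. The S100A10 and S100A11 segment held 11 regions in 100 kb and the S100A6-to-S100A1 segment 18 in 150 kb, or 11 and 12 per 100 kb. The middle segments held between 2.67 per 100 kb (loricrin) and 5.0 (involucrin and SPRR). The ends made up 14.7% of the length and held 29 of the 89 regions (32.6%), and 7 of the 9 regions called in all 8 libraries. The middle held the other 60 regions (67.4%). Ends and middle were set apart after the densities were seen, so the contrast between them is a description with no test.

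**Figure D2:**
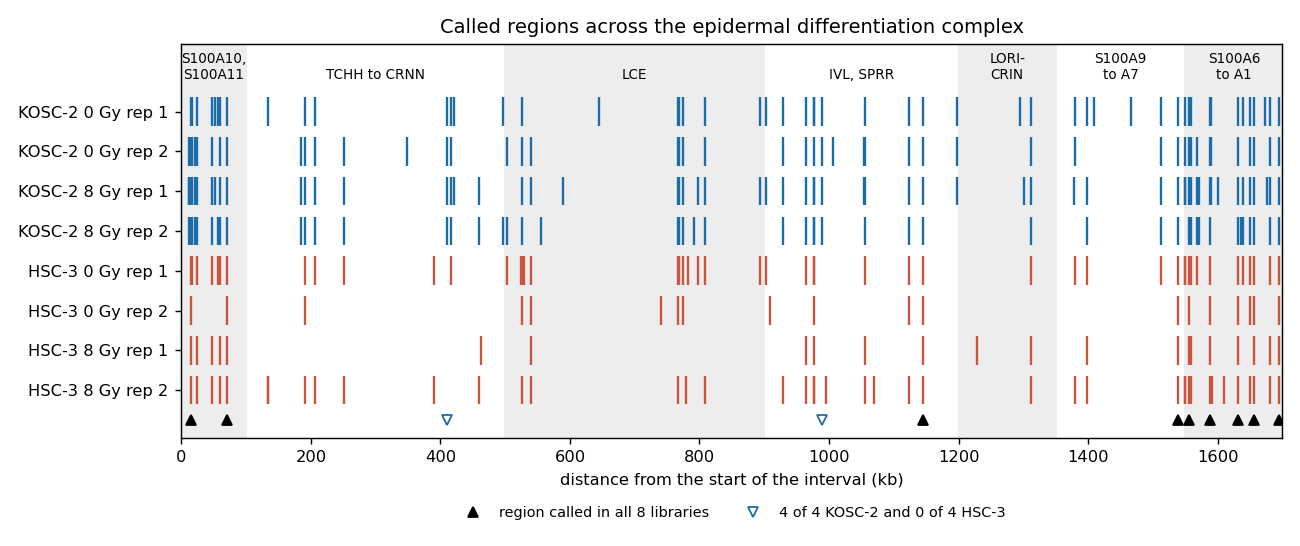
Called regions along the complex, with distance from the start of the interval in kb on the x axis and 1 row for each library (blue KOSC-2, red HSC-3). Each vertical line is a region called in that library, black triangles mark the 9 regions called in all 8 libraries, open triangles the 2 called in 4 of 4 KOSC-2 and 0 of 4 HSC-3 libraries, and shading the 7 segments. Lines crowd at both ends, and the rows of the 2 short HSC-3 lists (0 Gy replicate 2, 8 Gy replicate 1) are the sparsest.

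In the end segments, the KOSC-2 libraries had 7.60 and 7.20 peaks per 100 kb at 0 Gy and 9.60 and 8.40 at 8 Gy. The HSC-3 libraries had 7.20 and 3.60 at 0 Gy and 4.80 and 6.8 at 8 Gy. In the middle segments the same libraries had 2.28, 2, 2.48 and 1.93 (KOSC-2) and 2.14, 0.759, 0.690 and 1.86 (HSC-3). The ends were thus denser in 8 of 8 libraries, by a factor of 3.34 to 6.96 with a mean of 4.24 ± 1.20 (SD, n = 8). Against all tiles of the same length that hold a region, 98.0% of 100 kb tiles had fewer regions than the S100A10 and S100A11 segment, and 99.5% of 150 kb tiles had fewer than the S100A6-to-S100A1 segment. The middle segments were ordinary by this measure, with 40.0% (loricrin) to 78.9% (involucrin and SPRR) of tiles below them.

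**Figure D3:**
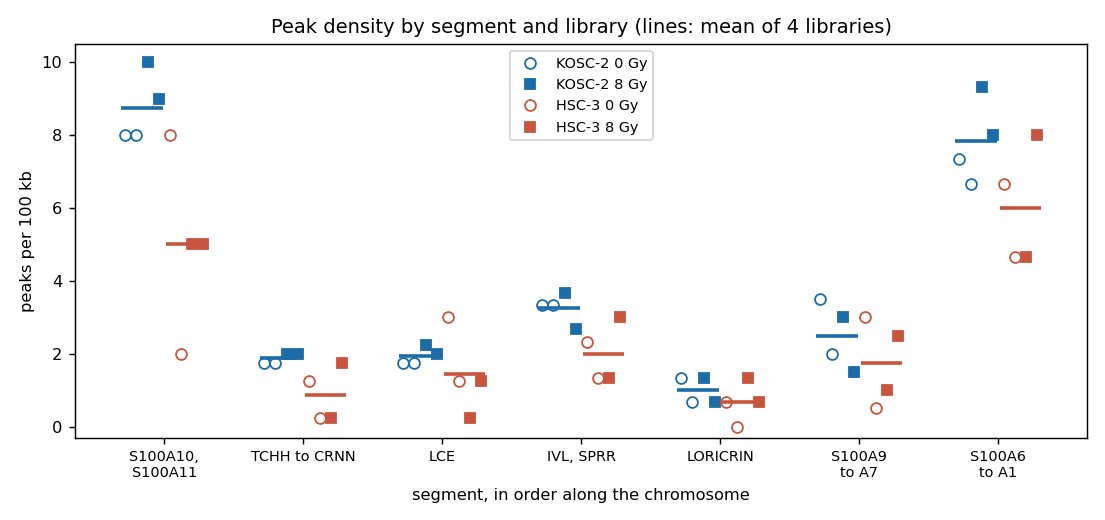
Peaks per 100 kb (y axis) in each of the 7 segments (x axis, in order along the chromosome) for the 8 libraries, with open circles for 0 Gy, filled squares for 8 Gy and horizontal lines for the mean of 4 libraries of a line. The S100A10 and S100A11 segment averages 8.75 in KOSC-2 and 5.0 in HSC-3, and the points of the lines overlap in every segment.

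The ends and the middle also differed in the reads around their peaks. The local background that the peak caller set against each summit was 5.40 times the lowest background of the library in the S100A10 and S100A11 segment (median over peaks) and 5.44 times in the S100A6-to-S100A1 segment. It was 1.55 times in the trichohyalin-to-cornulin segment, 1.76 in the LCE segment and 1.94 to 2.11 in the other 3. The median over all 308814 peaks of the series was 2.46. A higher local background lowers the fold enrichment of a peak, and the authors' median fold was 5.42 and 6.09 in the 2 end segments against 6.12 to 7.80 in the middle.

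S100A10 and S100A11 encode widely made calcium-binding proteins, the first a partner of annexin A2. The strongest region of their segment, at chromosome 1, 152020031 to 152021305 (1275 bp), was the top region of the complex in 6 of 8 lists and among the top 5 in 8 of 8. The summit pileups there were 95 and 98 reads in KOSC-2 at 0 Gy, 104 and 99 at 8 Gy, 72 and 27 in HSC-3 at 0 Gy and 48 and 59 at 8 Gy. Depth differs between libraries, so these reads are not a comparison of levels. Its rank by −log10 p, as a percentile of all peaks of the list, was 67.7 to 95.1. The second region of this segment called in every library, 151964819 to 151965447, had percentiles of 72.4 to 83.6 and pileups of 37 to 93 reads.

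The S100A6-to-S100A1 segment had 5 regions called in 8 of 8 libraries. They were 153506132 to 153506780, 153537950 to 153539415, 153581244 to 153582045, 153605969 to 153607117 and 153643289 to 153644565. The widest of them, 153537950 to 153539415 (1466 bp), had summit pileups of 81 and 101 reads in KOSC-2 at 0 Gy, 114 and 99 at 8 Gy, 84 and 36 in HSC-3 at 0 Gy and 51 and 67 at 8 Gy. It was among the top 5 of the complex in 6 of 8 lists, as was 153643289 to 153644565, and 153605969 to 153607117 was among them in 7 of 8. The weakest of the 5, 153506132 to 153506780, ranged from the 6.16th to the 65.4th percentile of its lists. Its local background was 6.81 times the library's lowest.

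Only 2 regions called in all 8 libraries lay between the ends. The region at 153095293 to 153096013, in the involucrin and SPRR segment, had pileups of 39, 32, 38 and 28 reads in KOSC-2 (both 0 Gy libraries, then both at 8 Gy) and 30, 17, 18 and 25 in HSC-3. Its percentiles of 60.6 to 81.5 place it in the upper part of every list. SPRR genes encode cross-linked envelope proteins that stressed epithelia also make. The region at 153488259 to 153488886, in the S100A9-to-S100A7 segment, was weaker in most lists, at 15.2 to 80.2. S100A8 and S100A9 form calprotectin, an antimicrobial protein of neutrophils and inflamed epithelia, and S100A7 is psoriasin.

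**Figure D4:**
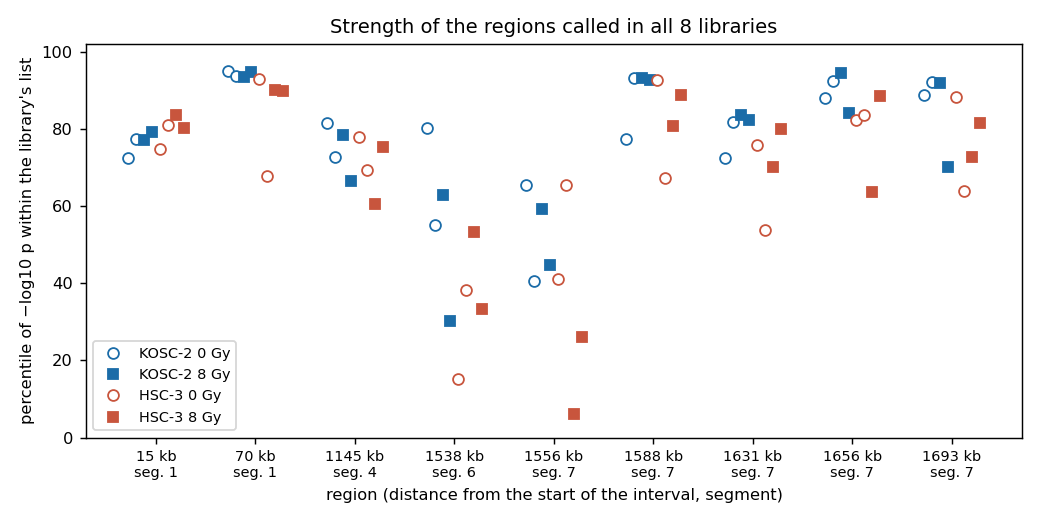
Percentile of −log10 p within its own library's list (y axis) for the 9 regions called in all 8 libraries (x axis, by distance from the start of the interval and segment number), with open circles for 0 Gy and filled squares for 8 Gy, blue KOSC-2 and red HSC-3. The region 70 kb from the start is at or above 67.7 in every list, and the regions in segment 6 and at the start of segment 7 reach down to 15.2 and 6.16.

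How often a region was called in a single library varied between segments, beside 31.9% over all regions of the series. The share was 75% in the loricrin segment (3 of 4), 50.0% in the LCE segment (9 of 18), 33.3% in both the S100A9-to-S100A7 (3 of 9) and S100A6-to-S100A1 (6 of 18) segments, 26.7% in the involucrin and SPRR segment (4 of 15), 21.4% in the trichohyalin-to-cornulin segment (3 of 14) and 0 of 11 in the S100A10 and S100A11 segment. The LCE segment had 0 regions called in all 8 libraries. Its most often called regions were 152475013 to 152475691 and 152715825 to 152716341, each called in 7 libraries and missed by HSC-3 replicate 1 at 8 Gy. The first had the higher mean percentile (58.2 against 39.9), with pileups of 16 to 49 reads against 16 to 31. In the loricrin segment the region called in more than 1 library, 153260894 to 153261483, was missed by HSC-3 replicate 2 at 0 Gy. In the trichohyalin-to-cornulin segment, which holds filaggrin and the related hornerin (HRNR), 152140267 to 152140997 led with 7 of 8 libraries and percentiles of 36.8 to 85.1. The 2 longest stretches without a region in any library were 152201751 to 152297631 (95.9 kb) and 152595812 to 152690813 (95.002 kb), the first in the trichohyalin-to-cornulin segment and the second in the LCE segment. Each is longer than 93% of all gaps between regions of the series (93.3% and 93.2%), while the median gap of the complex was 9.66 kb against 15.2 kb overall.

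Regions called in 7 of 8 libraries were more frequent in the complex (14 of 89, 15.7%) than over the series (7.59%), and those called in 8 of 8 less frequent (10.1% against 15.9%). No test was run on these shares. Each of the 14 lacked 1 of the 2 short HSC-3 lists: 9 lacked replicate 2 at 0 Gy and 5 lacked replicate 1 at 8 Gy. Over all 6115 such regions, 40.0% and 45.04% lacked these libraries.

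The lines were compared by the share of each list that fell in the complex. KOSC-2 libraries had 0.136% and 0.103% of their peaks there at 0 Gy (52 and 47 peaks) and 0.116% and 0.116% at 8 Gy (60 and 49 peaks). HSC-3 libraries had 0.117% and 0.0851% at 0 Gy (49 and 20 peaks) and 0.0978% and 0.102% at 8 Gy (22 and 44 peaks). The means were 0.118% ± 0.0135 and 0.100% ± 0.0131 (SD, n = 4 each), and the values of the lines overlapped. The difference of 0.0173 percentage points did not pass the exact two-sided permutation test of 4 against 4 libraries, run on 1665 tiles of 1700 kb across the genome (p = 0.143, Benjamini-Hochberg adjusted p = 0.253). Of these tiles 32.1% had lines that did not overlap, 535 had an unadjusted p under 0.05 (the smallest possible is 0.0286) and 0 passed after adjustment. Without the 3 libraries of lowest enrichment the difference was 0.00217 (exact permutation p = 0.8, where the smallest possible is 0.1, adjusted 0.858). It was 0.0112 when only replicate 1 of KOSC-2 at 0 Gy was left out. With all lists shortened to the strongest 22504 peaks, KOSC-2 lists had 20 to 29 peaks in the complex and HSC-3 lists 18 to 24.

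The complex was leaner than its surroundings in both lines. The interval of equal length before it (150250000 to 151950000) held 0.160% ± 0.0128 of KOSC-2 peaks and 0.153% ± 0.00544 of HSC-3 peaks, and the one after it (153650000 to 155350000) 0.150% ± 0.00469 and 0.126% ± 0.0179 (SD, n = 4 each). In each of the 8 libraries the complex had the smallest share of the 3 intervals. The complex still stood at the 73.6th to 95.3th percentile of all tiles by number of peaks, depending on the library. Regions called in all 8 libraries made up 10.1% of the complex, 23.2% of the flank before and 16.2% of the flank after.

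**Figure D5:**
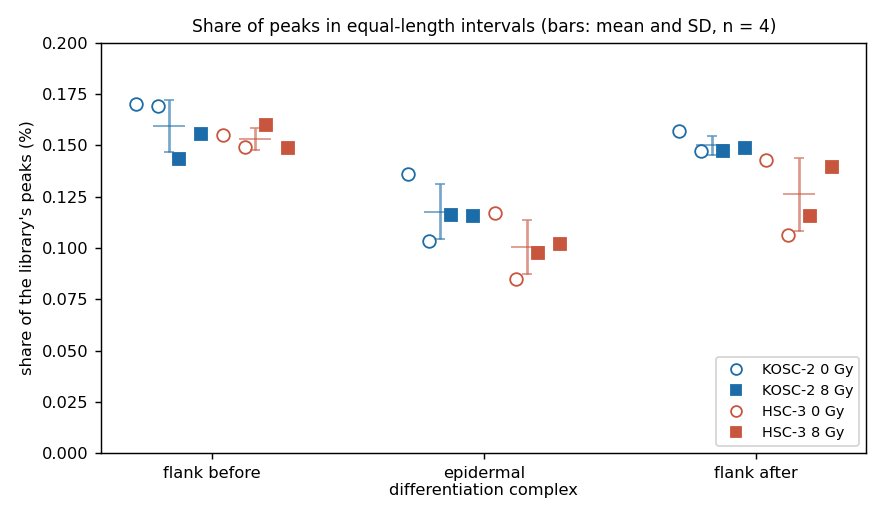
Share of each library's peaks (y axis, percent) in the complex and in the intervals of equal length before and after it (x axis), with open circles for 0 Gy, filled squares for 8 Gy and bars for the mean and SD of 4 libraries of a line. In the complex the KOSC-2 libraries lie between 0.103 and 0.136% and the HSC-3 libraries between 0.0851 and 0.117%.

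Most of what was called in the complex was found in both lines. Of the 89 regions, 48 were called in libraries of both lines, 27 in KOSC-2 alone and 14 in HSC-3 alone. These shares (53.9%, 30.3% and 15.7%) are near those of all regions (51.8%, 32.02% and 16.2%). Of the 27, 15 were called in 1 library, and of the 14, 13.

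A line-only region needed a call in every library of its line and in no library of the other. There were 2 in KOSC-2 (2.25% of the complex, against 2.07% of all regions) and 0 in HSC-3 (against 0.3%). The share in the complex was thus near the background. The first, 152359456 to 152359882, lies in the window that holds CRNN, the gene of cornulin, a marker of squamous epithelium of the mouth and oesophagus. Its summit pileups were 17 and 14 reads at 0 Gy and 19 and 13 at 8 Gy, with percentiles of 32.7 to 49.5. The second, 152939543 to 152940031, lies in the window of SPRR4 and was stronger, with 36 and 36 reads at 0 Gy, 30 and 24 at 8 Gy and percentiles of 59.6 to 78.2. The KOSC-2 count was 4 of 84 when replicate 1 of KOSC-2 at 0 Gy was left out (against 5.55% of all regions), 6 of 86 when replicate 1 of HSC-3 at 0 Gy was left out (against 3.43%), and 1 of 44 with lists of equal length (against 1.68%).

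Several other regions of the middle, and 151966151 to 151966881 in the S100A10 and S100A11 segment, were called in 4 of 4 KOSC-2 libraries and 1 HSC-3 library. They were singled out after their values were seen. The region at 152365277 to 152365952, next to the first KOSC-2 region, had pileups of 19, 20, 28 and 41 reads in KOSC-2 and 9 reads in HSC-3 replicate 1 at 0 Gy. The region at 152878444 to 152879209, in the window that holds involucrin, had 17, 30, 39 and 40 reads in KOSC-2 and 15 reads in HSC-3 replicate 2 at 8 Gy. Its percentiles ran from 2.73 in KOSC-2 replicate 1 at 0 Gy to 74.7 in KOSC-2 replicate 2 at 8 Gy. The others of the middle were 152717852 to 152718292 in the LCE segment and 153462664 to 153463536 in the S100A9-to-S100A7 segment. In all, 7 of 89 regions (7.87%) had calls in 4 of 4 KOSC-2 and at most 1 HSC-3 library, against 4.49% of all regions, and 0 had the reverse (0.655%). The difference in these shares was not tested, and the 2 short lists are both HSC-3. One region leaned to HSC-3 with 4 of 4 libraries against 2 of 4: 152489560 to 152490333 in the LCE segment, with 14, 14, 19 and 23 reads in HSC-3 and 9 and 15 in the 2 KOSC-2 libraries that called it.

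By windows of 50 kb, 25 of the 34 windows of the complex had a peak in at least 2 libraries and could be tested. In 1 window (152350000 to 152400000, with CRNN) the KOSC-2 shares lay above all HSC-3 shares, and in 0 windows the reverse held. The KOSC-2 libraries had 3, 2, 3 and 2 peaks there and the HSC-3 libraries 1, 0, 0 and 0. Across the genome 4.78% of 29419 windows had KOSC-2 above and 3.04% HSC-3 above, or 7.82% in either direction, so 1 of 25 is near the background. The exact permutation p of this window was 0.0286, the smallest possible, and 0.365 after Benjamini-Hochberg adjustment over all windows. At an unadjusted p under 0.05 there were 2301 windows in the genome, and 0 after adjustment.

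None of the 7 segments separated the lines by share of list (0 of 7, where 10.8% of 100 kb tiles, 13.2% of 150 kb tiles, 15% of 200 kb tiles, 17.7% of 300 kb tiles and 20.1% of 400 kb tiles did). The trichohyalin-to-cornulin segment had 7, 7, 8 and 8 peaks in KOSC-2 and 5, 1, 1 and 7 in HSC-3 (shares of 0.0154 to 0.0189% and 0.00426 to 0.0162%), and only HSC-3 replicate 2 at 8 Gy reached into the KOSC-2 range. The S100A10 and S100A11 segment had 8, 8, 10 and 9 peaks in KOSC-2 and 8, 2, 5 and 5 in HSC-3. The LCE segment had 7, 7, 9 and 8 in KOSC-2, and in HSC-3 both the highest and the lowest values, with 12, 5, 1 and 5. The S100A6-to-S100A1 segment had 11, 10, 14 and 12 in KOSC-2 and 10, 7, 7 and 12 in HSC-3. Its mean share of the list was lower in KOSC-2 (0.0265% ± 0.00311) than in HSC-3 (0.0282% ± 0.00316, SD, n = 4 each), with overlap. With lists of equal length the direction turned, and this segment had 8 to 10 peaks in KOSC-2 and 6 to 7 in HSC-3. The involucrin and SPRR segment then had 6 to 8 and 4 to 5. The lines thus did not overlap in 2 of 7 segments under that setting, KOSC-2 being above in both. Among all tiles they did not overlap in 6.89% of 100 kb tiles, 8.37% of 150 kb tiles, 9.84% of 200 kb tiles, 12.2% of 300 kb tiles and 14.3% of 400 kb tiles, and the segments were not tested.

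Irradiation was compared within each line. The mean share of peaks in the complex was 0.120% ± 0.0231 at 0 Gy and 0.116% ± 0.00037 at 8 Gy in KOSC-2, and 0.101% ± 0.0224 and 0.0999% ± 0.00308 in HSC-3 (SD, n = 2 each). The difference of 8 Gy minus 0 Gy, averaged over the lines, was -0.00247 percentage points (exact two-sided permutation p = 0.722 over 36 assignments, adjusted p = 1). In size it was below the SD of each group except KOSC-2 at 8 Gy. Its sign changed, to 0.00569 or 0.00546, when replicate 1 of KOSC-2 or of HSC-3 at 0 Gy was left out. The smallest p this design allows is 0.0556, so 0 of 1665 tiles had an unadjusted p under 0.05.

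Regions were counted as gained where both irradiated libraries of a line called them and the unirradiated pair did not, and as lost in the opposite case. In KOSC-2, 3 regions were gained (3.37% of the complex, against 3.51% of all regions) and 1 lost (1.12% against 0.87%). In HSC-3, 0 were gained (against 0.68%) and 1 was lost (1.12% against 0.957%). All 4 shares were near the background or rest on 1 region. The KOSC-2 gained regions were 151960945 to 151961327 (37 and 31 reads at 8 Gy), 152409061 to 152409732 (17 and 10 reads) and 153521713 to 153522137 (36 and 21 reads), with mean percentiles of 10.7, 11.6 and 42.6. The second of these was also called in HSC-3 replicate 2 at 8 Gy, with 7 reads. The KOSC-2 lost region, 153329956 to 153330429, lies in the window of S100A9 and had 30 and 15 reads at 0 Gy. In HSC-3 it was called in 1 library at each dose. The HSC-3 lost region, 152724625 to 152725114 in the LCE segment, had 10 and 10 reads at 0 Gy, and in KOSC-2 it was called in all 4 libraries with 18 to 27 reads.

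Single libraries moved these small counts. Leaving out each KOSC-2 library in turn (both at 0 Gy first, then both at 8 Gy, by replicate number) gave 6, 7, 6 and 10 gained regions in KOSC-2 among 84, 88, 84 and 86, where 5.02%, 12.2%, 8.2% and 14.1% of all regions were gained. It gave 3, 7, 4 and 1 lost regions, where 6.8%, 8.49%, 3.56% and 1.41% of all regions were lost. Leaving out the HSC-3 libraries in the same order gave 10, 0, 10 and 2 gained regions in HSC-3 among 86, 87, 87 and 83, where 5.66%, 0.955%, 11.4% and 3.36% of all regions were gained. It gave 3, 15, 1 and 7 lost regions, where 3.08%, 10.7%, 1.17% and 7.13% of all regions were lost. Whether any of these counts differs from its share of all regions was not tested. A dose with 1 library left has 1 call to meet in place of 2, so these counts rise by construction.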

How the data were processed

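ATAC-seq was run on 8 libraries, 2 for each line and dose, grouped and numbered from the sample titles. For each library the authors deposited a peak list without a header. The submitters' processing notes list MACS2 2.2.6 and deepTools beside Bowtie2 2.3.4.2 and SAMtools 1.9, and give FastQC 0.11.7 and the build as hg19, with no role or setting for any. How duplicates, blacklisted regions and the Tn5 shift were handled is not given in the sources. For each peak the authors deposited a score (10 times the −log10 q without decimals), the fold enrichment at the summit (a ratio), and the −log10 p and −log10 q of the summit. These are relative to 1 library and were used here for description, ranking and filtering inside that list alone.

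Summit pileup and background were recovered from fold and p, taking the fold as (pileup + 1) / (background + 1) and p as a Poisson tail. The search ran over pileups of 2 to 600, and each list was recovered for 100% of its peaks to within 0.0001 on the −log10 p scale. Depth was measured by each list's lowest background, scaled from 300 bp to reads per 10 kb. Peaks on chromosomes 1 to 22 and X were merged where they shared at least 1 bp. Tiles and windows count summits and were tested where at least 2 libraries had a peak, by exact permutation with Benjamini-Hochberg adjustment over all tiles or windows (threshold 0.05). Same-numbered libraries share only a number, so the main tests were not blocked.

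Regions named were those called in all 8 libraries, line-only, gained or lost, and the most often called of each segment. Members, segments and tests were chosen with earlier results of these data known. Alternatives are given in the closing section. The functions, tested on simulated lists, ran in Python 3.11.15 with scipy 1.17.1, pandas 2.3.3 and numpy 2.4.6, and figures were drawn with matplotlib 3.10.9.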

Additional observations from a re-analysis of the deposited data

Results flagged for a closer look

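In the involucrin and SPRR segment the share of the full list moved in opposite directions with dose in the 2 lines, without overlap between doses in either line. KOSC-2 libraries had 0.0262% and 0.0220% of their peaks there at 0 Gy (10 and 10 peaks) and 0.0213% and 0.0189% at 8 Gy (11 and 8 peaks), a mean change of -0.0040 percentage points. HSC-3 libraries had 0.0167% and 0.0170% at 0 Gy (7 and 4 peaks) and 0.0178% and 0.0209% at 8 Gy (4 and 9 peaks), a change of 0.00247. With lists of equal length the KOSC-2 direction turned, with 6 and 6 peaks at 0 Gy and 8 and 7 at 8 Gy. HSC-3 then had 5 and 4 peaks at 0 Gy and 4 and 5 at 8 Gy. The opposite moves were thus not kept under that setting. The difference between the lines was not tested. This share was 1 of 10 measures looked at, and the peak numbers of the full lists behind it overlap between doses in both lines. How many 300 kb tiles of the genome show such opposite moves is not given here, so the pattern has no background beside it. Of 20 sets of 4 library values of a line, 0 had a value far from the rest.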

How the results depend on the processing

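The difference between the lines in share of peaks kept its direction and stayed short of the threshold under every alternative run. With the replicate block (smallest possible permutation p 0.125) and without the 3 libraries of lowest enrichment (0.1) it could not have passed. Those settings speak only to its direction and size. Leaving out 1 library gave 0.0112 to 0.0227 percentage points. The difference between doses was -0.0106 to 0.00569 with 1 library left out, and turned to 0.0111 with lists of equal length. The 50 kb windows without overlap numbered 3 of 24 at a −log10 q of at least 5 (8.79% of all windows) and 0 of 18 with lists of equal length (5.35%). They numbered 5 of 24 without the 3 libraries of lowest enrichment (31.4%) and 1 to 2 with 1 library left out (9.35% to 15.4%). With a replicate block, 5 of 25 windows had the same sign in all 4 pairs of libraries, against 17.7% of all windows. The block left the adjusted p at 0.260 for the lines and 1 for the doses. Deviations of same-numbered libraries correlated between -0.291 and 0.193, so the numbers were not taken as pairs. Crossing the HSC-3 numbers between doses, a choice made after seeing this, gave 0 calls in 1665 tiles. With 16 assignments the smallest permutation p was 0.125, so no tile could be called and this count decides nothing.

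KOSC-2-only regions numbered 1 of 44 with lists of equal length (1.68% of all regions) and 4 of 80 without the 3 libraries of lowest enrichment (6.12%). They numbered 4 with at least 50% of a region covered (2.47%) and 5 with calls in at least 3 of 4 libraries (6.22%). With 1 library left out they numbered 2 to 6 (2.19% to 5.55%). HSC-3-only regions numbered 1 without the 3 libraries (4.29%) and 0 with any 1 left out (0.322% to 0.761%). With lists of equal length 44 regions of the complex were left. Of these, 1 was gained and 0 lost in KOSC-2 (2.13% and 1.7% of all regions). In HSC-3, 2 were gained and 0 lost (1.81% and 2.3%). Without the 3 libraries there were 6 and 3 in KOSC-2 (5.21% and 7.07% of all regions) and 10 and 15 in HSC-3 (13.7% and 12.4%), among 80 regions of the complex. With 50% coverage KOSC-2 lost numbered 2 of 89 (0.948% of all regions) and HSC-3 gained 1 of 89 (0.799%). With 1 library left out, KOSC-2 gained ranged from 3 to 10 (3.55% to 14.1% of all regions) and KOSC-2 lost from 1 to 7 (0.881% to 8.49%). HSC-3 gained ranged from 0 to 10 (0.703% to 11.4%) and HSC-3 lost from 1 to 15 (0.987% to 10.7%).

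The density of the ends over the middle, for which alternatives were chosen after seeing the data, was 6.11 with lists of equal length (where 2 of the 7 segments, in place of 0, had lines that did not overlap), 6.09 by covered bases, 3.77 without the 3 libraries and 3.85 to 4.36 with 1 library left out. Of the 19 named regions, also retried after seeing the data, 9 were called by fewer libraries by over 1.5 times with lists of equal length, and 0 at the stricter q or with 50% coverage. The cause of these changes was not tested. List length and the smallest callable pileup limit every count.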

Other observations

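The regions called in 1 line alone had a median mean percentile of 16.8 in HSC-3 (14 regions) and 17.7 in KOSC-2 (27 regions), and the highest were 30.9 and 66.2. Of the 14 HSC-3 regions, 1 was called in 2 libraries. That region, 152339900 to 152340285 in the window of FLG2, had 14 reads in the HSC-3 0 Gy library replicate 1 and 9 in the 8 Gy library replicate 2, the 2 long HSC-3 lists. In the end segments lay 9 of the 27 KOSC-2 regions and 2 of the 14 HSC-3 regions, beside 29 of all 89 regions of the complex (32.6%). These counts were not tested.

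The highest fold enrichment of the complex by the authors' values was 18.9, at 153072658 to 153073211 in the SPRR2 windows. The region was called in 7 of 8 libraries, with 26, 20, 45 and 49 reads in KOSC-2 and 22, 19 and 19 in the HSC-3 libraries other than the 8 Gy library replicate 1. It was named after its values were seen. In the first 50 kb window, which holds S100A10, KOSC-2 libraries had 4, 6, 7 and 6 peaks and HSC-3 libraries 4, 1, 3 and 3 (exact permutation p of the share 0.0857, adjusted over all windows 0.472).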
